A study of Mus musculus with 4 samples.

Results

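The genes described here are 31 components of BMP, activin, TGF-beta and ROCK signalling, the pathways blocked by small molecules in the culture medium of haploid neural stem cell-like cells. They were taken as a list of symbols: 12 receptors, of which 1 is a co-receptor, 8 SMAD proteins, 2 SMAD corepressors, 2 ubiquitin ligases and 7 genes from RhoA to actin. Each was looked up in the 2 deposited tables of transposon reads per gene, which together list 5614 genes. Of the 31 genes, 14 were listed in at least 1 table, and 17 were in neither.

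The cells were mouse, of the 129Sv strain background, with a single chromosome set, and were made from haploid embryonic stem cells. Suspension culture as embryoid bodies for 3 days was followed by N2B27 medium with FGF2 and EGF (20 ng/ml each), the BMP receptor inhibitor LDN193189 (300 nM), the activin and TGF-beta receptor inhibitor SB431542 (10 μM) and a ROCK inhibitor. The ROCK inhibitor was Y-27632 (20 μM), Thiazovivin (4 μM) or both together (10 μM and 2 μM), and the labels do not say which of these the mutant pools received. The trap was delivered on a piggyBac plasmid (20 μg) together with 10 μg of transposase plasmid, G418 was used to keep cells with a trapped gene, and the junctions of transposon and genome were read after splinkerette PCR. The 4 samples form library 1 and library 2, each with 2 samples pooled into 1 table, and the labels name no treatment that differs between them. Every value below is therefore a value of 1 pool with no replicate, no test between conditions was possible, and intervals cover counting error only. The reads come from genomic DNA and do not measure expression, so the labelled cell type could not be checked against marker genes.

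BMP, activin and TGF-beta ligands bind pairs of serine/threonine kinase receptors on the cell surface. The type II receptor phosphorylates the type I receptor, which phosphorylates a SMAD protein that enters the nucleus with the shared partner Smad4 and changes transcription. Inhibitory SMADs, the corepressors Ski and Skil and the Smurf ubiquitin ligases restrain this signal, and blocking both branches is a standard way to steer pluripotent cells to a neural fate. RhoA activates the ROCK kinases, which raise actomyosin contraction, and ROCK inhibitors help dissociated stem cells to survive. A piggyBac transposon inserts at the letters TTAA, and a gene trap is built to interrupt the transcript of the gene that it enters.

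Library 1 held 55442 nonredundant and 877870 redundant reads, and library 2 held 48750 and 1300140. More than 50% of the listed genes in each library had exactly 1 nonredundant read (53.7% and 59.7%). Nonredundant reads are used throughout unless redundant reads are named. A gene missing from a table was taken to have 0 reads, which allows a share of up to 0.00541% of library 1 or 0.00615% of library 2. Y-linked genes, a set unrelated to these pathways, were listed for 3 of 78 genes in library 1 (3.85%) and 7 of 78 in library 2 (8.97%). At 2 or more reads the numbers were 1 (1.28%) and 3 (3.85%), and none had 10 or more reads. What part reads like those in Y-linked genes have among the members with 1 or 2 reads was not tested.

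Sequence upstream of the transcription start is shown for Ski and Bmpr2, the members with most reads in library 2 and library 1, to set their start regions beside the transposon's target letters. Each line gives the 250 bases before the RefSeq start in build GRCm38.p6, 5′ to 3′ on the gene's strand, with TTAA in capitals. The Ski window is chr4:155222536-155222785 on the minus strand and the Bmpr2 window is chr1:59764029-59764278 on the plus strand.
Ski: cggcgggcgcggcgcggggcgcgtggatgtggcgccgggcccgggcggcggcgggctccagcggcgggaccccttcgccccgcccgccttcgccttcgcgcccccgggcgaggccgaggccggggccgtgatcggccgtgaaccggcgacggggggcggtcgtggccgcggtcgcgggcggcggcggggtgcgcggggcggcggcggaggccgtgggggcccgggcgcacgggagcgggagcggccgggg
Bmpr2: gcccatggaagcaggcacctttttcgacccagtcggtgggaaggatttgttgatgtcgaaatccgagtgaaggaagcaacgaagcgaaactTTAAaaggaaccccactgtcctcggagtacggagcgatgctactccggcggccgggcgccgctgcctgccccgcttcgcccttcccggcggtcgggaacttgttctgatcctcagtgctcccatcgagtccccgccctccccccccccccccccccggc
The Ski window was 87.6% G or C and held no TTAA. The Bmpr2 window was 64% G or C and held 1 TTAA, beginning 159 bases before the start. TTAA reads the same on both strands. Windows were given for 24 of the 31 genes, and 10 of their 34 windows held the letters (29.4%). These came from Acvr1b, Bmpr1b, Bmpr2, Cfl1, Limk2, Rhoa, Smad5 and Smad6, and 2 overlapping Smad5 windows share the same TTAA. Over all promoters, 16086 of 32851 windows held the letters (49.0%). That set covers 27025 genes and is not the background of 21035 genes used below. The median G or C content was 67.6% for the members' windows and 52.4% for all. The tables give no insertion positions, so no read could be placed inside or outside these windows.

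Across the whole list, 8 of 31 genes were listed in library 1 and 10 in library 2, against 19.9% and 15% of all 21035 genes with curated coding transcripts. In either library the share was 45.2% (14 of 31 genes, all genes 26.6%), and 4 genes, Bmpr2, Smad6, Ski and Rock2, were listed in both (12.9%, all genes 8.25%). Another 4 were in library 1 alone and 6 in library 2 alone. These shares leave gene length aside, and most members are long. Of the 31 genes, 14 are in class 9 and 7 in class 10 of the 10 length classes described below. In those classes 56.9% and 81.7% of all genes were listed in either library, above the 45.2% of the members. At 2 or more reads, 5 and 4 members remained, against 9.19% and 6.07% of all genes. At 10 or more reads there was 1 member in each library, Bmpr2 in library 1 and Ski in library 2, against 2.37% and 1.4% of all genes. The listed members had a median of 4 reads in library 1 and 1 read in library 2, and the median over all listed genes was 1 in both.

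**Figure D1:**
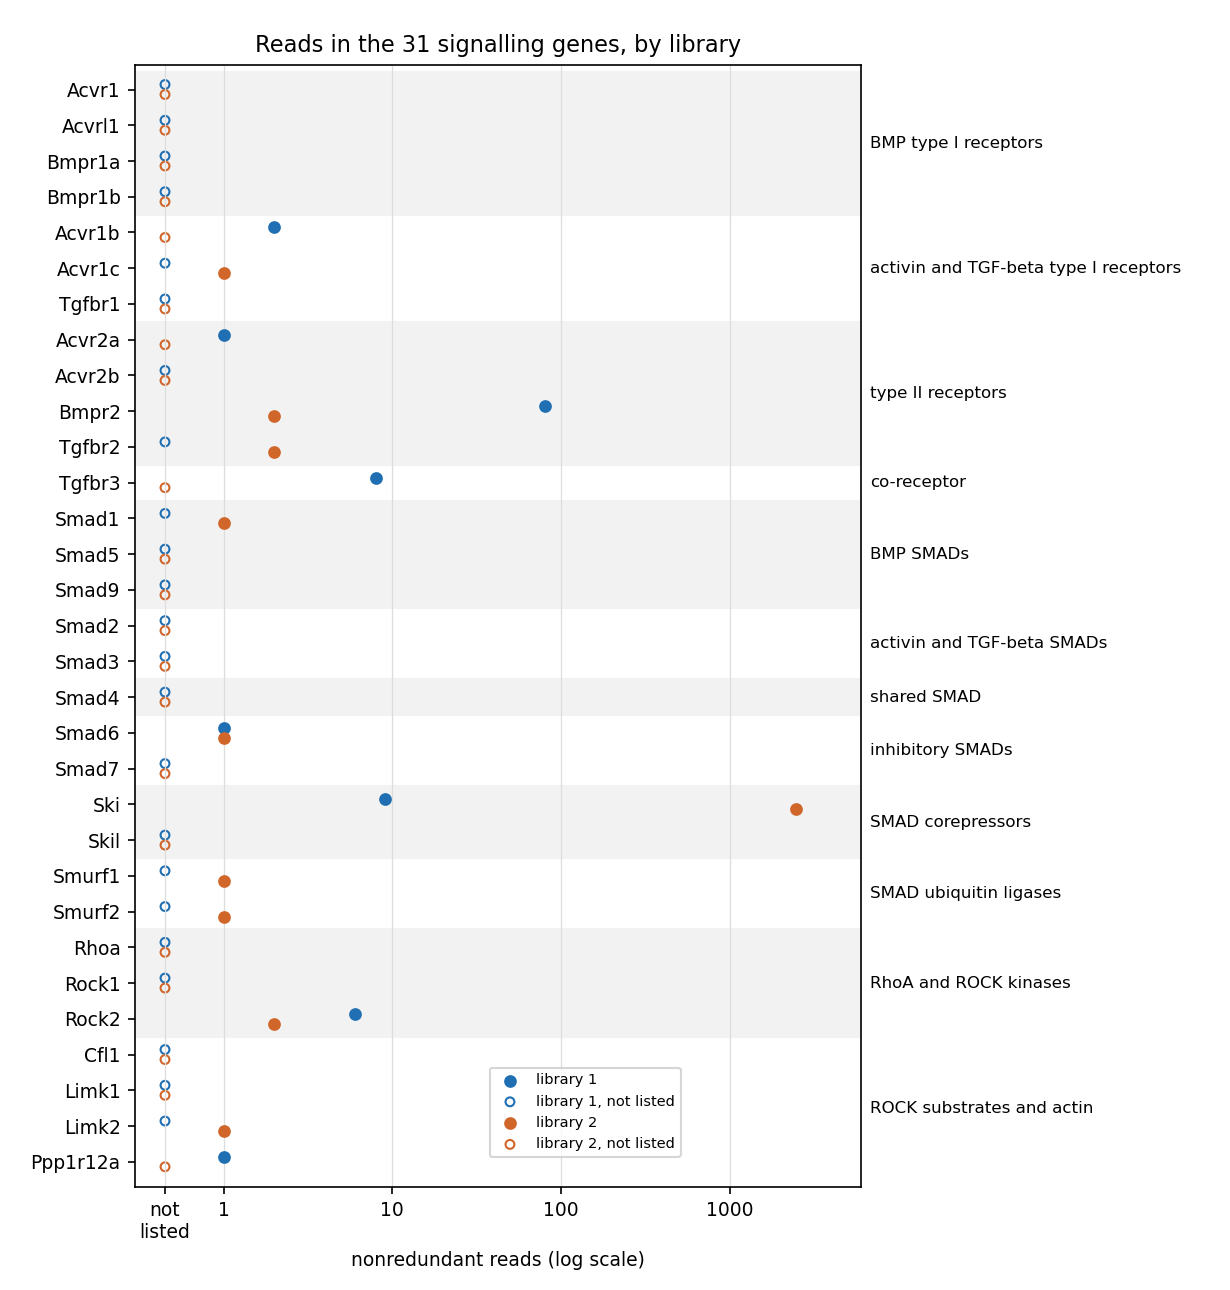
Nonredundant reads (log scale) of each of the 31 genes in library 1 (blue) and library 2 (orange), grouped by role; open circles at the left mark genes that a table does not list, and there are no error bars because each library is 1 pool. Ski at 2469 reads in library 2 and Bmpr2 at 80 in library 1 stand apart from all other points, which lie at 9 reads or fewer.

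Of the 7 type I receptors, the kinases that the receptor inhibitors act on, 2 were listed in either library (28.6%, all genes 26.6%). None of the 4 BMP type I receptors had a read in either library. These are Acvr1, Bmpr1a and Bmpr1b, which bind BMPs in many tissues, and Acvrl1, best known from endothelium. Among the 3 receptors of the activin and TGF-beta branch, the activin receptor gene Acvr1b had 2 nonredundant and 3 redundant reads in library 1 and none in library 2. Acvr1c, a receptor for nodal and some activins, had 1 nonredundant but 63 redundant reads in library 2 and none in library 1. Tgfbr1, the type I receptor for TGF-beta itself, was listed in neither. No type I receptor had more than 2 nonredundant reads, where the median listed gene of each library had 1. The share of listed type I receptors was thus near that of all genes when gene length is left aside. All of them but Acvrl1 are in classes 8 to 10 of the 10 length classes described below. In those classes 42%, 56.9% and 81.7% of all genes were listed in either library.

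The type II receptors and the co-receptor held nearly all of the receptor reads, 89 of 91 in library 1 and 4 of 5 in library 2. Bmpr2, a type II receptor that pairs with BMP type I receptors, had 80 reads in library 1, or 0.144% of that library (exact Clopper-Pearson 95% interval 0.114 to 0.180). In library 2 it had 2 reads, or 0.00410% (0.000497 to 0.0148). It ranked 156 among the listed genes of library 1, and its share there was 35.2-fold that in library 2 (95% interval 9.42 to 295, and 141-fold with redundant reads). The intervals of the 2 shares do not overlap, but they cover counting error only and treat reads as independent. Tgfbr3, the co-receptor betaglycan that presents TGF-beta to the signalling receptors, had 8 reads in library 1 and none in library 2. Its share of library 1 was 0.0144% (0.00623 to 0.0284). That share was 2.34-fold the share of the floor of 3 counts in library 2 (4.44-fold with redundant reads). This ratio takes the 8 reads as exact. The low end of their interval, 0.00623%, was close to the floor share of 0.00615% in library 2. Tgfbr2, the type II receptor for TGF-beta, had 0 reads in library 1 and 2 in library 2, below the floor of 3 counts, so no direction is given. Acvr2a, a type II receptor for activin, had 1 read in library 1 and none in library 2, and its relative Acvr2b was in neither table.

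Of the 8 SMAD genes, 2 were listed in either library (25.0%), near the 26.6% of all genes. In library 1 the number was 1 of 8 and in library 2 it was 2 of 8, where 19.9% and 15% of all genes were listed. The 8 SMAD genes are long, in classes 7 to 10 of the length classes described below. From 30.7% (class 7) to 81.7% (class 10) of all genes in those classes were listed in either library, above the 25.0% of the SMAD genes. Of the 6 genes that carry the signal, Smad1 alone was listed, with 1 read in library 2. Smad5 and Smad9, which like Smad1 transmit BMP signals, had none, nor did Smad2 and Smad3, which transmit activin and TGF-beta signals, or the shared Smad4. Of the inhibitory SMADs, Smad6, which acts mainly on the BMP branch, had 1 read in each library, and Smad7, which restrains both branches, had none. No SMAD gene had more than 1 read in a library, which is also the count of the median listed gene.

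Ski carried the reads of the list in library 2. It encodes a corepressor that binds SMAD complexes and silences their target genes, and it had 2469 reads there, 5.06% of the library (exact Clopper-Pearson 95% interval 4.87 to 5.26) and rank 4 among its genes. In library 1 it had 9 reads, 0.0162% (0.00742 to 0.0308), and rank 500. The share in library 2 was 312-fold that in library 1 (164 to 683, and 1606-fold with redundant reads). The intervals of the shares lie far apart, but they cover counting error only and treat reads as independent. Its paralogue Skil, which encodes the related corepressor SnoN, had no read in either library. Smurf1 and Smurf2, ubiquitin ligases that mark SMADs and receptors for degradation, had 1 read each in library 2 and none in library 1.

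An uneven split of this kind was usual for genes with many reads. Bmpr2 had 97.6% of its 82 summed reads in 1 library, and 240 of the 261 other genes with between 0.5 and 2 times as many summed reads had over 90% of them in 1 library (92.0%). For Ski the share was 99.6% of 2478 reads, and all 5 other genes in its range were over 90%. The split of Ski and Bmpr2 was thus like that of most genes with a like number of reads.

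In the ROCK branch, 3 of 7 genes were listed in either library (42.9%, all genes 26.6%), and 2 of 7 in each library (all genes 19.9% and 15%). These shares leave gene length aside. Rock1 and Ppp1r12a are in class 10 of the length classes described below, and Rock2 and Limk2 are in class 9. Rhoa and Limk1 are in class 7 and Cfl1 is in class 2. In classes 10, 9, 7 and 2, 81.7%, 56.9%, 30.7% and 2.33% of all genes were listed in either library. Rock2, one of the paired ROCK kinases, had 6 reads in library 1 (0.0108%, 0.00397 to 0.0236) and 2 in library 2 (0.00410%, 0.000497 to 0.0148). These shares overlap, and their ratio of 2.64 has a 95% interval of 0.472 to 26.7, which includes no difference (4.44 with redundant reads). Rock1, the other target of the ROCK inhibitors, and Rhoa, the GTPase that activates both kinases, had no read in either library. Downstream of ROCK, Limk2, a kinase that inactivates the actin-severing protein cofilin, had 1 read in library 2. Ppp1r12a, the targeting subunit of myosin phosphatase that ROCK inhibits, had 1 read in library 1. Limk1 and the cofilin gene Cfl1 were in neither table.

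A single gene led the members' reads in each library, to a different degree. All 31 genes together held 108 reads in library 1, 0.195% of it (95% interval 0.160 to 0.235), of which Bmpr2 gave 74.1% and 7 other genes the rest. In library 2 they held 2481 reads, 5.09% (4.90 to 5.29), of which Ski gave 99.5%. Without Bmpr2 and Ski as the respective leading genes, 28 reads (0.0505%, 0.0336 to 0.0730) were left in library 1 and 12 (0.0246%, 0.0127 to 0.0430) in library 2, so the lean of the summed reads towards library 2 rests on Ski.

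Gene length went with listing. All genes were put in 10 classes of equal number by their length in GRCm38.p6, which is not the build of the tables, and used only for this order. The 14 members in class 9 were listed most often, 10 of them in either library, where 56.9% of all genes of that class were listed. In class 10, the longest genes, 3 of 7 members were listed (Bmpr2, Tgfbr3 and Ppp1r12a), against 81.7% of all genes. The unlisted members of that class were Acvr1, Bmpr1b, Smad3 and Rock1. Bmpr1b, rank 469 of all genes by length, was the longest member. Of the 10 members in the shorter classes only Acvr1b was listed. Skil, Smad7, Rhoa and Limk1 were in class 7, where 30.7% of all genes were listed, and Cfl1 was in class 2, where 2.33% were. The share of members listed in either library therefore lay above that of all genes in class 9. It lay below in each other class that held members (2, 5, 7, 8 and 10). No class held more than 14 members, and classes 2 and 5 held 1 each. In class 9, 4 members were listed in library 1 and 9 in library 2, against 42.9% and 29.3% of all genes. The excess in class 9 was thus in library 2 and not in library 1. Ski itself was in class 9, where 2.9% of all genes reached 10 or more reads in library 2, and Bmpr2 was in class 10, where 13.5% did so in library 1.

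**Figure D2:**
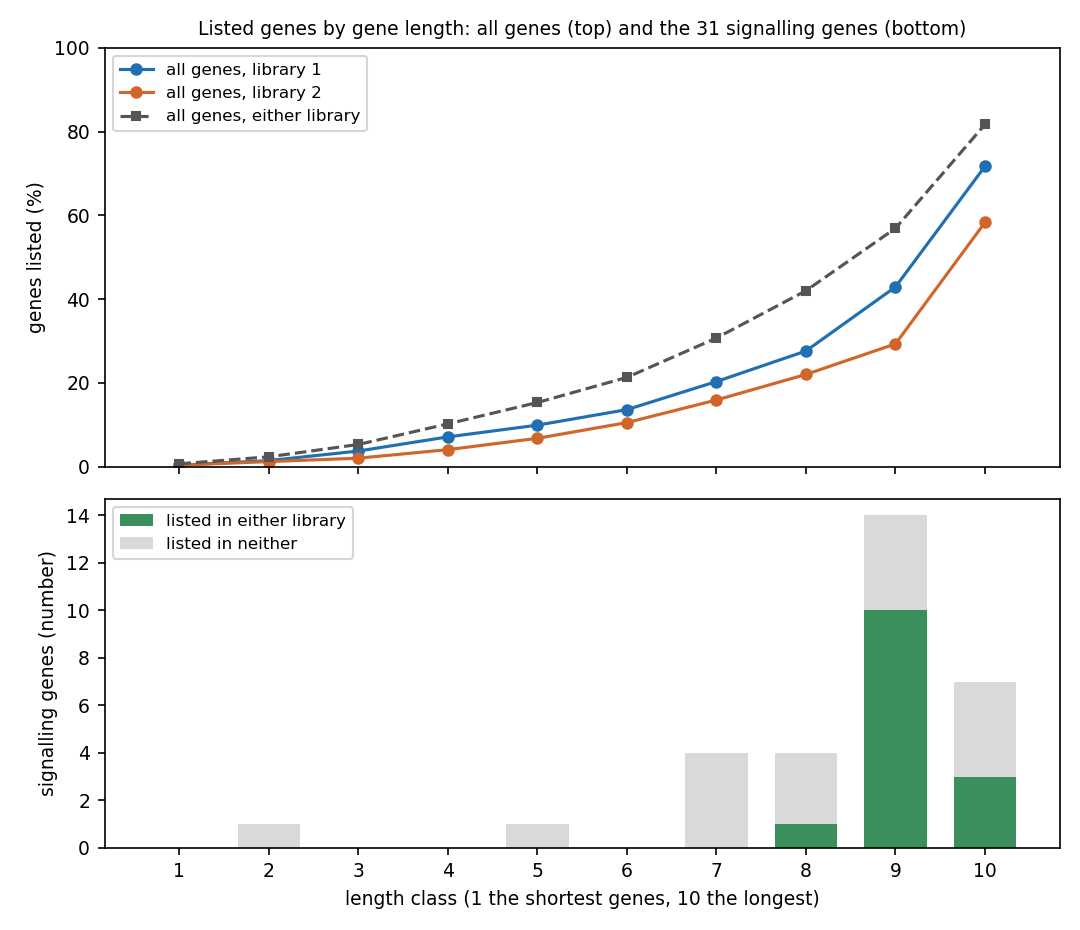
Top, percentage of all genes listed in library 1, library 2 and either library for 10 classes of gene length, from class 1 (shortest) to class 10 (longest). Bottom, number of the 31 genes in each class that were listed in either library (green) or in neither (grey); the listed share among all genes reaches 81.7% in class 10, where 3 of 7 members were listed.

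The count of redundant reads adds a second view of the same genes. How the submitters defined nonredundant is not given in the sources used here. Over all genes the ratio of redundant to nonredundant reads was 15.8 in library 1 and 26.7 in library 2. Both counts were equal for 3 of the 8 members in library 1 and 7 of the 10 in library 2, against 56.4% and 56.2% of all listed genes. For Ski in library 2 there were 97543 redundant reads, rank 5 and 7.50% of that library, or 39.5 per nonredundant read. The 3 other genes with between 0.5 and 2 times its nonredundant reads all had more, with a median of 61.6. In library 1 the 9 reads of Ski went with 41 redundant reads (4.56 per nonredundant read, other genes' median 1.8), and the 80 reads of Bmpr2 went with 191 (2.39 per nonredundant read, other genes' median 3.67). Tgfbr3 in library 1 had 9 redundant reads and Rock2 had 6, nearly or exactly as many as their nonredundant reads. Acvr1c was the member with most redundant reads for its count, since only 31 of the 1890 other genes with 1 nonredundant read in library 2 had 63 or more redundant reads (1.64%), and 74.1% of them had exactly 1.

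**Figure D3:**
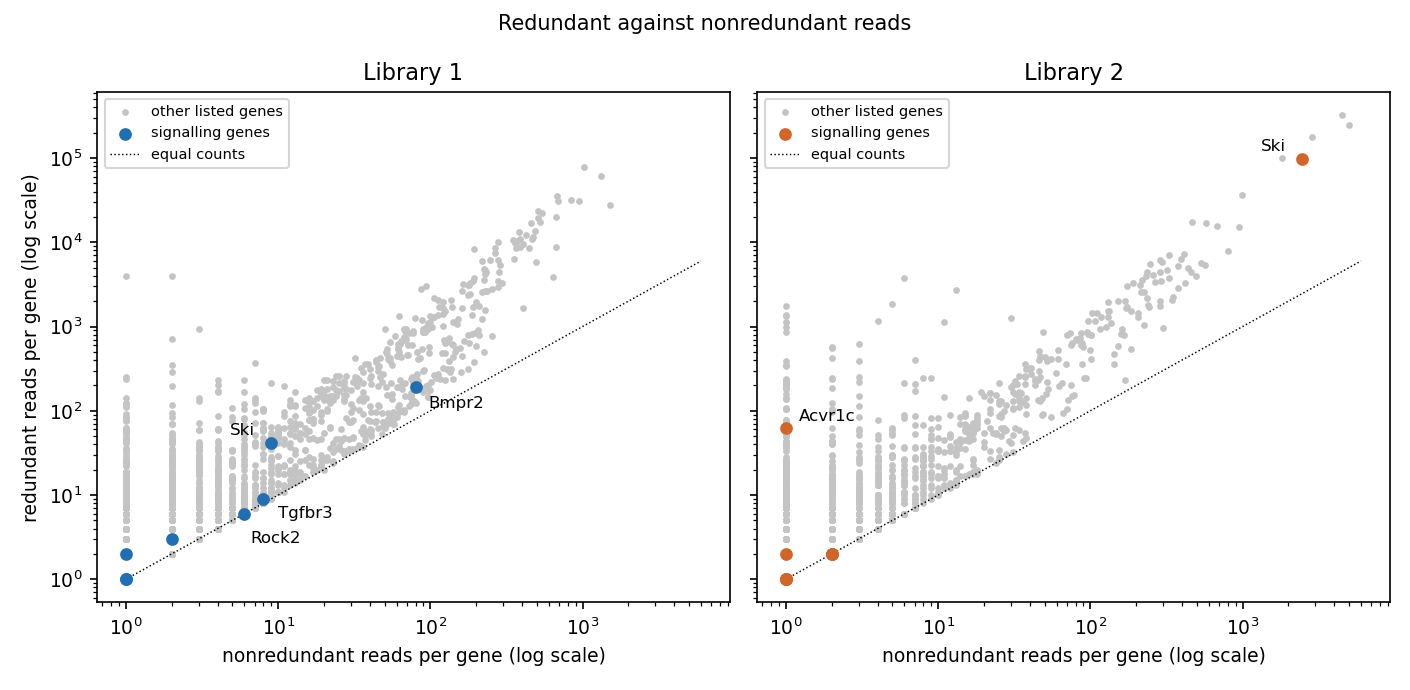
Redundant against nonredundant reads per gene (both axes log scale) in library 1 (left) and library 2 (right), with the signalling genes in colour, other listed genes in grey and equal counts as a dotted line. Ski lies at 2469 and 97543 reads in library 2, and Acvr1c lies at 63 redundant reads for 1 nonredundant read.

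The genes next to Ski and Bmpr2 had few reads. In the order of coding genes along the chromosome, Ski lies between Morn1, with 0 and 2 reads in libraries 1 and 2, and Faap20, with none. Bmpr2 lies between Nop58, with none, and Fam117b, with 1 read in library 1. The reads of both members were thus not shared by their nearest neighbours, none of which overlaps them.

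Other genes of the same pathways were taken from 4 lists. Of 33 BMP and TGF-beta family ligands, 7 were listed in either library (21.2%, all genes 26.6%). Bmp7, a BMP with roles in kidney, eye and brain, led them with 3 reads in library 1 and 91 in library 2. Bmp6 had 3 and 0 reads, Tgfb2 had 2 and 0, and Bmp5 had 1 in each. Of 31 extracellular regulators and co-receptors, 10 were listed (32.3%), and none reached 10 reads. Sost, which encodes the secreted antagonist sclerostin, had 9 reads in library 1 and none in library 2, and Ltbp1, which holds latent TGF-beta in the matrix, had 3 and 2.

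Intracellular SMAD regulators were listed for 11 of 23 genes (47.8%, all genes 26.6%). Rnf111, which encodes Arkadia, a ubiquitin ligase that degrades Ski and Skil, had 0 and 25 reads. Dach1, a repressor related to Ski, had 3 and 30 reads, and 1279 redundant reads in library 2. Zeb2, a SMAD-binding repressor of early neural cells, had 16 and 2 reads, and Nedd4l, a ubiquitin ligase for SMADs, had 3 and 2. Of 11 target genes, 2 were listed (18.2%, all genes 26.6%), Msx1 with 4 reads and Atoh8 with 1, all in library 1. Over these 4 lists, 1 of 98 genes reached 10 reads in library 1 and 3 did in library 2, and none did in both, against 2.37%, 1.4% and 0.204% of all genes. The median length class was 3 for the ligands, 5 for the extracellular regulators, 9 for the SMAD regulators and 2 for the target genes. The order of the lists' shares (lowest in target genes and ligands, highest in SMAD regulators) was thus also the order of their lengths. In classes 3, 5, 9 and 2, 5.28%, 15.3%, 56.9% and 2.33% of all genes were listed in either library. The share of the SMAD regulators lay below that of their median class, and the shares of the other lists lay above. Genes of a list spread over several classes, so a median class is only a rough guide.

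**Figure D4:**
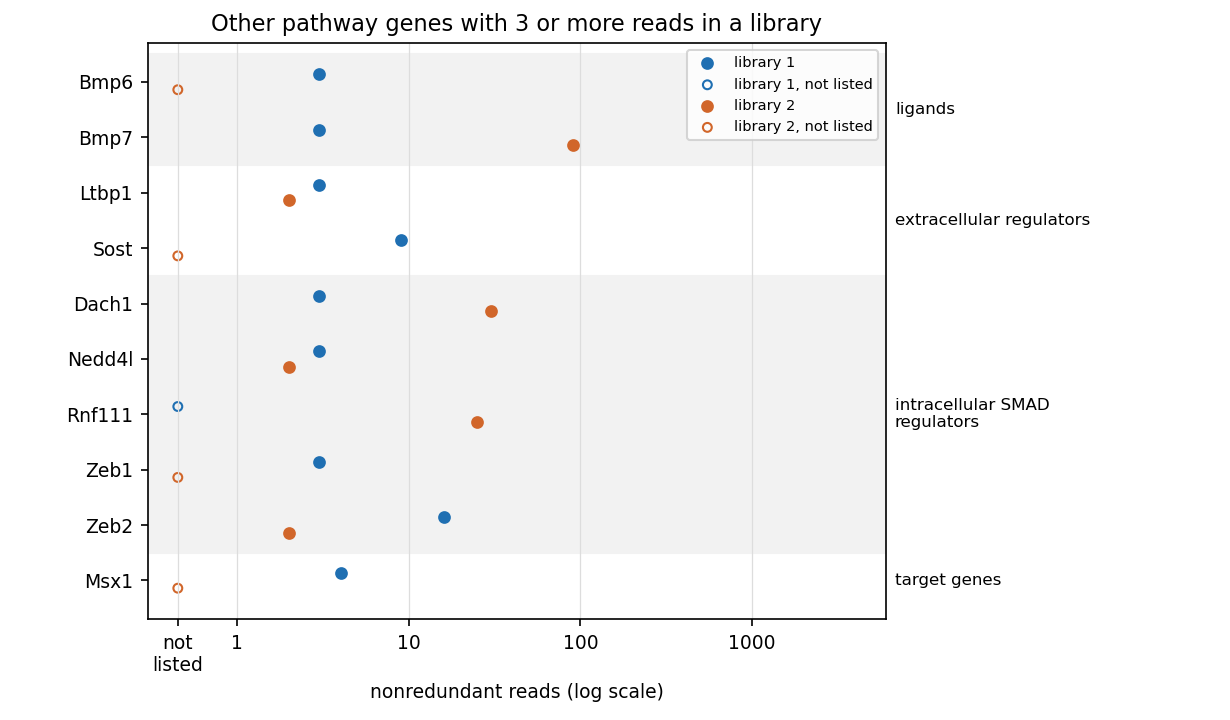
Nonredundant reads (log scale) in library 1 (blue) and library 2 (orange) of the other pathway genes with 3 or more reads in a library, grouped by list; open circles mark genes that a table does not list. Bmp7 (91 reads), Dach1 (30) and Rnf111 (25) reach 10 or more reads in library 2, and Zeb2 (16) does in library 1.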

How the data were processed

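Genomic DNA of 4 samples was amplified by splinkerette PCR and sequenced. CASAVA, BWA and build mm9 were used, per the submitters' processing notes. The rule that gave each read its gene is not given in the sources used here. The 2 deposited tables hold raw counts of nonredundant and redundant reads per gene, per the file headers, with no normalization and no value per sample. No molecular identifiers are named in the sources used here. Whether the nonredundant count stands for distinct insertions is not given there, so neither count is read as a number of insertions or cells.

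Members were matched by symbol. Transcripts or symbols placed 4182 of 4184 and 3167 of 3168 genes in a RefSeq table of GRCm38.p6, whose 21035 genes with curated coding transcripts were the background and gave length classes. Shares have exact Clopper-Pearson 95% intervals, and ratios of shares have exact conditional binomial intervals (Python 3.11.15, SciPy 1.17.1). The ratio intervals were checked on simulated independent counts only. PCR reads are not independent molecules, so this check does not show how well the intervals hold for these data. No hypothesis test was run, because each library is 1 pool.

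The members and lists were chosen with earlier results of these data known. All 31 members are named. Other pathway genes are named at 10 or more reads in a library, with up to 3 more per list by summed reads, as are the nearest neighbours of members with 10 or more reads. A further list is not reported here. Alternatives were other read minima, redundant reads, other denominators, another match and another background. Coordinates are printed for 2 RefSeq windows only.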

Additional observations from a re-analysis of the deposited data

How the results depend on the processing

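Counts of listed members depended on the read minimum. In library 1, 8 listed members became 5 at 2 nonredundant reads, 1 at 10 and 6 at 2 redundant reads. In library 2, 10 became 4, 1 and 6. Matching through RefSeq transcripts gave the same 8 and 10. The members' share of library 1 was 0.0289% of redundant reads and 0.0505% without Bmpr2. Their share of library 2 was 7.51% of redundant reads, 0.0427% without the 10 genes with most reads in members and total, and 0.0246% without Ski. The ratio of shares of Ski was 1606 with redundant reads. The ratio of Tgfbr3 to the floor in library 2 was 4.44 with redundant reads and 1.61 without the 10 leading genes. The ratio of Bmpr2 was 141 with redundant reads and 24.2 without the 10 leading genes, and that of Rock2 was 4.44 and 1.82. The ratio of Ski was 453 with the 10 leading genes left out of the totals only. Ski is itself among those genes in library 2 (rank 4), and its own reads were kept. This value is therefore not a ratio of shares of the totals it is set against. No ratio changed direction. A background with non-coding transcripts, chosen after seeing the data, lowered the share of listed genes to 15.9% and 12.1%. No paired analysis was possible because each table pools its samples, and for the same reason no sample could be left out. Members at 1 read are at the limit of what these tables can show.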

Other observations

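Msx1, a target gene of BMP signalling, was in length class 2, where 8 of 2103 genes (0.38%) reached 2 or more reads in library 1. It had 4 nonredundant and 7 redundant reads in that library and none in library 2. Msx1 was singled out after its values were seen.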
